A study of Homo sapiens with 6 samples.

Results

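The IL-1 family genes described here are 10 genes: the agonist ligands IL18, IL1A, IL1B and IL33, the antagonist IL1RN, the receptor chains IL1R1, IL1RAP, IL1RL1 and IL18R1, and the protease gene CASP1. They are found by gene symbol, and all 10 are present among the 24462 symbols of the count files. The members were selected on the count values of these same 6 libraries, so the differences of the 10 genes between the cell lines are given as descriptions without a test. The gene lists used below were also chosen with earlier results of these data known, so their calls and counts are not independent tests. The study sequences RNA from 3 libraries of HCEC 1CT and 3 libraries of 1CT-A. HCEC 1CT is an established line of immortalized colon epithelial cells, wild type at APC, and 1CT-A is the same line with APC knocked down, where the agent used is not named for this line. APC is the tumor suppressor that holds β-catenin in check in the Wnt pathway, and it is often mutated in tumors of the colon. All 6 libraries come from untreated cells in one medium with EGF, hydrocortisone, insulin, transferrin, selenite and 2% FBS. The sources used here do not say whether the libraries of a line are separate cultures or whether 1CT-A is 1 clone, so p-values measure only the spread between these libraries, which may be technical.

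The cytokines of this family are alarm signals of barrier tissues. IL-1β and IL-18 are made as inactive precursors and are cut by caspase-1, which is itself switched on inside an inflammasome, whereas IL-1α and IL-33 act without that step when cells are damaged. IL-1α and IL-1β bind IL1R1, IL-33 binds ST2, the product of IL1RL1, and IL-18 binds IL18R1. IL1RAP is the shared partner chain of IL1R1 and ST2, while IL-18 uses its own partner, IL18RAP. The bound receptors pass the signal through MyD88 and IRAK kinases to NF-κB. IL1RN encodes the antagonist that occupies IL1R1 without signaling. In the intestine, IL-18 is a main product of epithelial cells and acts on the barrier and on lymphocytes.

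The members differ in the sequence before their start sites, and a pair of promoters is shown because one is poor and one is rich in CG pairs. RefSeq promoter windows on GRCh38.p14, read over the 250 bases before each start, are used for 8 members in 17 windows. IL18 and CASP1 have no entry. Both sequences run 5′ to 3′ on the strand of the gene with CG pairs in capitals. The IL1B window lies at chr2:112836780-112837029 on the minus strand and the IL1RAP window at chr3:190513835-190514084 on the plus strand.
IL1B: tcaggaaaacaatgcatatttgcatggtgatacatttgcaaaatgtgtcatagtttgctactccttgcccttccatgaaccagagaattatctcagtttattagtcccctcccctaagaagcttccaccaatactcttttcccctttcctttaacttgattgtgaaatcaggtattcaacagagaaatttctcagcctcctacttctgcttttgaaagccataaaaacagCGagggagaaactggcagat
IL1RAP: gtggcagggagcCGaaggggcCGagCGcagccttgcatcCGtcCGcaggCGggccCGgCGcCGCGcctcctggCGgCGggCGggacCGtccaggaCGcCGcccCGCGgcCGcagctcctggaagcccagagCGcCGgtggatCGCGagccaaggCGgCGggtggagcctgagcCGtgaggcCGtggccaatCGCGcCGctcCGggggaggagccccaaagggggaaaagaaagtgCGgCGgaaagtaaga

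The IL1B window holds 1 CG pair and is 40% G or C. The IL1RAP window holds 33 CG pairs at 74.8% G or C, more pairs than 91.9% of the 35116 windows of the table, whose median is 11. Both IL18R1 windows also lie above that median, with 21 and 14 pairs, and 1 of the 4 IL1R1 windows does, with 31. The windows of IL1A, IL1RN, IL1RL1 and IL33 hold between 0 and 8 pairs. Searched on both strands, TATAAA is found in 4 of the 17 member windows and in 10.7% of all windows. TGANTCA, the AP-1 motif, is found in 4 member windows and in 6.57% of all. CTTTGA, the core bound by the TCF and LEF partners of β-catenin, is found in 0 member windows and in 11.2% of all. These matches describe letters within the windows only. In levels of CPM, counts scaled to 1000000 counts of the library, IL1RAP is at 1.57 or more in every library and IL1B at 1.05 or less. IL18R1, whose windows are also above the median in CG pairs, is at 0.807 CPM or less in every library.

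The libraries hold 7788679 to 8452258 counts in 1CT and 11158108 to 12602988 in 1CT-A. A level was taken as visible from 3 counts upward, which is 0.355 to 0.385 CPM in the libraries of 1CT and 0.238 to 0.269 CPM in those of 1CT-A, which are deeper. APC itself is 46.6 ± 2.75 CPM in 1CT and 31.9 ± 2.21 CPM in 1CT-A (SD, n = 3 each). Of 10 colon epithelial markers, EPCAM, VIL1 and MUC2 are at 0 in all 6 libraries, and the summed level of the list is 40.9 to 45.1 CPM in 1CT against 23.5 to 30.2 CPM in 1CT-A. The 3 epithelial markers that could be tested, KRT18, KRT19 and CLDN7, are called lower in 1CT-A by edgeR, as are 26.0% of all genes tested, although CLDN7 is not called without 1CT replicate 1, 1CT-A replicate 1 or 1CT-A replicate 2 (adjusted p = 0.0654, 0.0620 and 0.107). All 10 mesenchymal markers are seen, led by VIM and COL1A1, with sums of 4759 to 5826 CPM in 1CT against 4399 to 4725 CPM in 1CT-A. The absence of EPCAM, VIL1 and MUC2 counts goes against the epithelial label of both lines, and CDH1, KRT8, KRT20 and CDX2 are low or at 0. Of this list, only KRT18 and CLDN7 have counts in every library. KRT18 averages 11.2 CPM in 1CT and 5.06 CPM in 1CT-A, and CLDN7 averages 26.6 and 20.6 CPM. KRT19 averages 3.33 CPM in 1CT and is at 0 in 1CT-A. The list is thus mixed, and the label was not tested. The myeloid list sums to 12.7 to 15.6 CPM in 1CT against 9.76 to 10.5 CPM in 1CT-A, mostly CD68, and PTPRC, TYROBP and SPI1 are at 0. The lymphoid list stays at or below 0.241 CPM in every library, with 6 of 8 markers at 0. The endothelial list sums to 15.5 to 22.3 CPM in 1CT against 2.96 to 6.06 CPM in 1CT-A, with CDH5 at 0. The mast cell list sums to 0.514 to 0.845 CPM in 1CT against 0.0793 to 0.527 CPM in 1CT-A, with TPSAB1 and HDC at 0. The part of these lists in the differences described next was not tested.

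IL18 is the only agonist ligand of the 4 that is well above the limit of 3 counts in either line, and it is nearly lost in 1CT-A. The 1CT libraries hold 316, 310 and 227 IL18 counts, which are 37.4, 37.4 and 29.1 CPM. The 1CT-A libraries hold 4, 8 and 6 counts, which are 0.358, 0.702 and 0.476 CPM. All 1CT libraries are far above all 1CT-A libraries and the groups do not overlap. The means are 34.7 ± 4.77 CPM in 1CT and 0.512 ± 0.175 CPM in 1CT-A (SD, n = 3 each), a log2 fold change of -6.09 with a standard error of 0.22, or 67.9-fold less in 1CT-A. Among the 12514 genes tested, 48 have a lower log2 fold change. By level, IL18 stands above 81.8% of the 24462 symbols in 1CT and above 47.9% in 1CT-A. IL18 passed the filter on low counts only through the 1CT libraries. In bulk RNA, fewer IL18-expressing cells and less IL18 RNA per cell cannot be told apart.

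The other agonists are at the edge of detection. IL1A, the precursor form of which is already active, has 3, 0 and 1 counts in 1CT and 0 in every 1CT-A library. IL33, a nuclear alarmin, has 5, 0 and 0 counts in 1CT and 0 in every 1CT-A library, so its signal rests on 1CT replicate 1. For both genes the mean of 1CT, 0.161 CPM for IL1A and 0.197 CPM for IL33, is below the limit of 3 counts in 1CT-A, 0.257 CPM, so no fold is given. A difference of either gene was not detectable at this depth.

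IL1B, the inflammatory IL-1β that depends on caspase-1, is on average higher in 1CT-A at a very low level. It has 2, 3 and 1 counts in 1CT (0.237, 0.362 and 0.128 CPM) and 4, 12 and 13 counts in 1CT-A (0.358, 1.05 and 1.03 CPM). The lowest 1CT-A library falls within the range of 1CT, so the groups overlap. Pooled over libraries, the ratio of 1CT-A to 1CT is 3.37, with an exact 95% interval of 1.38 to 9.93 that covers counting error only. The ratio lies between 2.76 and 4.47 when 1 library is left out.

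Summed over the 4 agonist ligands, nearly all counts of 1CT belong to IL18. The agonists reach 38.6, 37.8 and 29.4 CPM in 1CT and 0.717, 1.76 and 1.51 CPM in 1CT-A. IL18 provides 96.9% (94.4% to 98.3%), 99.0% (97.2% to 99.7%) and 99.1% (96.9% to 99.8%) of these counts in the 1CT libraries. In the 1CT-A libraries it provides 50% (21.5% to 78.5%) of 8 counts, 40% (21.9% to 61.3%) of 20 counts and 31.6% (15.4% to 54.0%) of 19 counts (95% Wilson intervals, counting error only). IL1B holds the rest in 1CT-A, since IL1A and IL33 are at 0 there. Summed without IL18, the agonists are 0.601 ± 0.507 CPM in 1CT and 0.814 ± 0.395 CPM in 1CT-A (SD, n = 3 each), a difference within the spread of the libraries.

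The antagonist IL1RN has 0 counts in all 6 libraries, which allows a level of up to 0.385 CPM in 1CT and up to 0.269 CPM in 1CT-A. The same is true of IL1RL1, the receptor of IL-33. Both lines thus show no visible transcript of the antagonist or of ST2 at this depth.

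**Figure D1:**
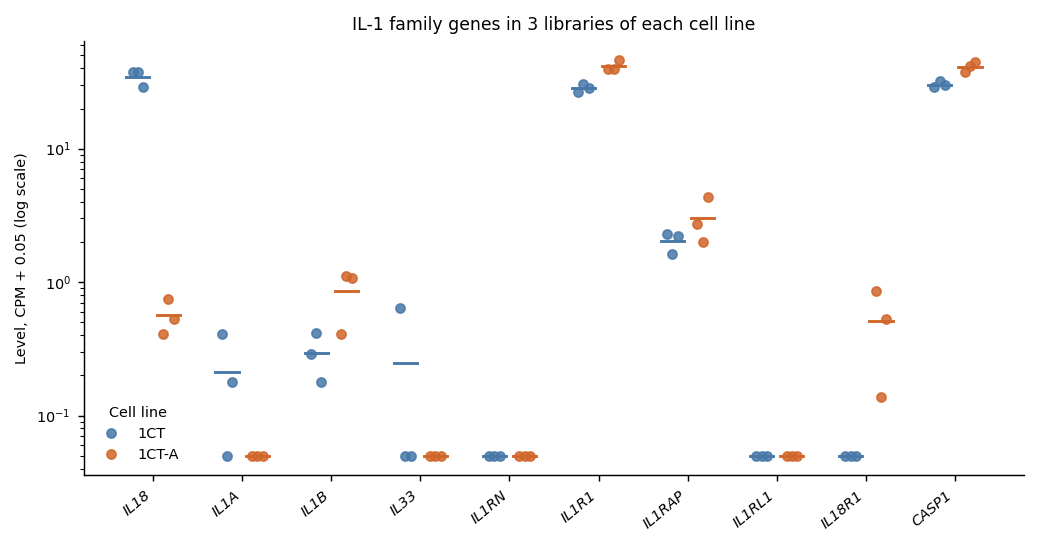
Level of each IL-1 family gene in the 3 libraries of 1CT and of 1CT-A, as CPM + 0.05 on a log scale, with a point for each library and a line at the mean. IL18 is at 29.1 CPM or more in every 1CT library and at 0.702 CPM or less in every 1CT-A library, while IL1R1 and CASP1 sit slightly higher in 1CT-A.

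The 2 receptor chains of IL-1 are above the limit of 3 counts in all 6 libraries. IL1R1, the signaling receptor of IL-1α and IL-1β, has 226, 254 and 221 counts in 1CT (26.7, 30.7 and 28.4 CPM) and 440, 447 and 577 counts in 1CT-A (39.4, 39.2 and 45.8 CPM). Every 1CT-A library is above every 1CT library. The log2 fold change is 0.50 with a standard error of 0.10, or 1.41-fold more in 1CT-A. By level, IL1R1 stands above 79.3% of the 24462 symbols in 1CT and above 83.2% in 1CT-A.

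IL1RAP, the partner chain, is at a lower level. It has 19, 13 and 17 counts in 1CT (2.25, 1.57 and 2.18 CPM) and 30, 22 and 54 counts in 1CT-A (2.69, 1.93 and 4.28 CPM). The groups overlap, and 1CT-A replicate 3 stands above the others. The log2 fold change is 0.54 with a standard error of 0.34, and it is 0.18 without 1CT-A replicate 3. The number of IL1R1 counts per IL1RAP count is 14.8 ± 4.13 in 1CT and 15.2 ± 4.84 in 1CT-A (SD, n = 3 each), a difference within the spread of the libraries. The library kit reads transcript ends, so this ratio of counts is not divided by length.

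IL18R1, the binding chain for IL-18, has 0 counts in all 3 libraries of 1CT and 9, 1 and 6 counts in 1CT-A (0.807, 0.0878 and 0.476 CPM). The groups do not overlap, but 1CT-A replicate 2 holds a single count. Against 3 counts per 1CT library, a mean limit of 0.367 CPM, the 1CT-A mean of 0.457 CPM is at least 1.24-fold higher. Without 1CT-A replicate 1 the mean is 0.282 CPM, under that limit, and no fold can be given. IL18RAP, the partner chain that IL-18 needs to signal, is at 0 in all 6 libraries. IL18BP, the secreted trap of IL-18, has 8, 5 and 9 counts in 1CT and 7, 5 and 5 counts in 1CT-A and did not pass the filter on low counts.

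CASP1, the protease that cuts the IL-18 and IL-1β precursors, has 243, 264 and 233 counts in 1CT (28.7, 31.9 and 29.9 CPM) and 416, 475 and 563 counts in 1CT-A (37.3, 41.7 and 44.7 CPM). All 1CT-A libraries are above all 1CT libraries. The log2 fold change is 0.41 with a standard error of 0.10, or 1.33-fold more in 1CT-A. By level, CASP1 stands above 80.0% of all symbols in 1CT and above 83.1% in 1CT-A. CARD16 is a nearly identical neighbor of CASP1 that encodes a short inhibitor, and the counting could split reads between them. CARD16 has 73, 97 and 53 counts in 1CT and 95, 91 and 100 counts in 1CT-A, with overlapping levels in CPM. With the counts of CASP1 and CARD16 added together, the log2 fold change is 0.29.

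In all, 4 of the 10 members passed the filter on low counts, and 6 did not. Of all 12514 tested genes, 51.0% are called by edgeR at an adjusted p under 0.05, 25.0% higher and 26.0% lower in 1CT-A. No call is given for the members, since their choice used this contrast. The share of all genes whose libraries separate without overlap was not counted. Genes that are not called, such as CASP4 and MAP3K7, also separate, so separation of a member is a description only. The median log2 fold change of all tested genes is -0.01. Of the 12514 tested genes, 1969 have a higher log2 fold change than IL1R1, 1763 than IL1RAP and 2487 than CASP1. The sum of the 10 members is 96.0 ± 6.02 CPM in 1CT and 87.5 ± 8.25 CPM in 1CT-A (SD, n = 3 each), and their library ranges overlap. The order of levels in CPM in 1CT is IL18, CASP1 and IL1R1 at the top, and the ranges of CASP1 and IL1R1 overlap, as do those of IL18 and CASP1. In 1CT-A the ranges of IL1R1 and CASP1 overlap at the top, IL1RAP follows, and IL1B, IL18 and IL18R1 come next with overlapping ranges. Since the library kit reads transcript ends, these CPM levels are not divided by length, and the order is one of counts.

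The remaining ligands, receptors and binding proteins of the family are almost silent. Of 13 such genes, 8 have 0 counts in all 6 libraries, among them IL36A, IL36B, IL36G, IL36RN and IL1RL2, the ligands, antagonist and receptor of the IL-36 branch. IL1R2, the decoy receptor of IL-1, has 4, 1 and 2 counts in 1CT and 2, 4 and 2 in 1CT-A. The only tested gene of this list is SIGIRR, an inhibitory receptor of the family. SIGIRR has 101, 72 and 98 counts in 1CT and 67, 80 and 91 in 1CT-A, or 11.1 ± 2.09 and 6.75 ± 0.652 CPM (SD, n = 3 each), without overlap. It fell with a log2 fold change of -0.75 (SE 0.18, edgeR adjusted p = 0.00306).

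The inflammasome and processing genes, which switch on caspase-1 or act beside it, hold more genes that fell than rose. Of 22 listed genes, 13 were tested, 1 rose, 6 fell and 6 did not pass, beside 25.0% higher and 26.0% lower among all genes, and the median log2 fold change is -0.29 against -0.01 for all. NLRP1, a sensor that nucleates an inflammasome in epithelial cells, has 111, 108 and 70 counts in 1CT and 34, 25 and 52 in 1CT-A. It fell with a log2 fold change of -1.93 (SE 0.23, edgeR adjusted p = 1.6e-05). PYCARD encodes ASC, the adaptor that recruits caspase-1, and has 231, 197 and 149 counts in 1CT and 87, 78 and 134 in 1CT-A. It fell by 1.51 on the log2 scale (SE 0.18, edgeR adjusted p = 1.3e-05). In CPM, neither gene overlaps between the lines.

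Further genes of the list moved in both directions. DFNA5, the pore-forming gasdermin E, fell with a log2 fold change of -1.01 (SE 0.18, edgeR adjusted p = 3.7e-04), and NEK7, a kinase that NLRP3 requires, with -0.83 (SE 0.18, edgeR adjusted p = 0.00164). The calpain CAPN2 fell by 0.34 on the log2 scale (SE 0.09, edgeR adjusted p = 0.00473). The sixth gene that fell is the calpain CAPN1, with -0.29, named after its values were seen, and it is not called without 1CT-A replicate 2 or 1CT-A replicate 3 (edgeR adjusted p = 0.0580 and 0.0567). CASP8, the initiator caspase of death receptors that can also cut IL-1β, has 127, 88 and 45 counts in 1CT and 304, 378 and 370 in 1CT-A. It rose with a log2 fold change of 1.47 (SE 0.22, edgeR adjusted p = 9.3e-05). The most abundant genes that did not pass are TXNIP, DPP9 and CASP4, with log2 fold changes of -0.10, -0.10 and -0.23. Other inflammasome sensors are barely seen, as NLRP3 has at most 1 count in a library, and AIM2, NLRP6, CARD17 and CARD18 are at 0 in all 6.

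**Figure D2:**
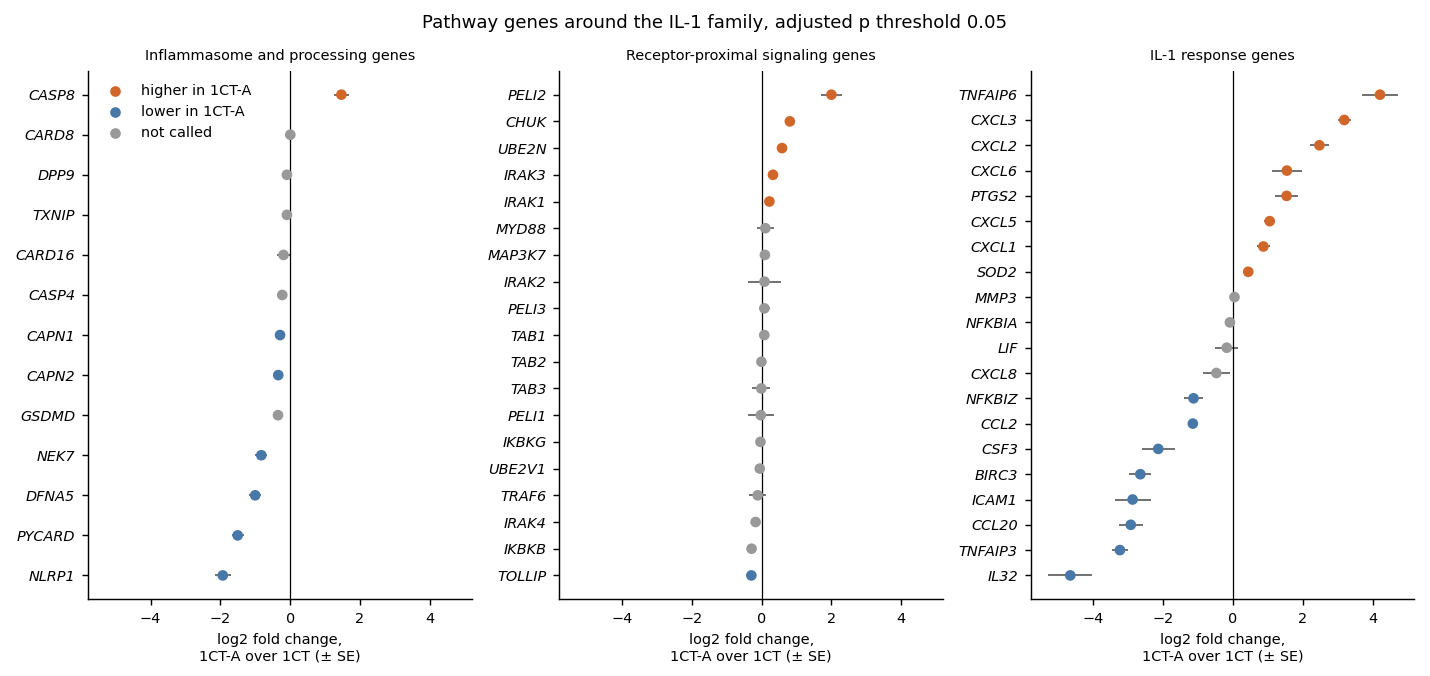
Fitted log2 fold change of 1CT-A over 1CT with its standard error for the tested genes of 3 pathway lists, colored by whether edgeR calls them at an adjusted p of 0.05. The inflammasome list has 6 genes lower and 1 higher, the receptor-proximal list has 5 genes higher, led by PELI2, CHUK and UBE2N, and 1 lower, and the response list spreads widely to both sides. The outermost values of the response list, TNFAIP6 and IL32, rest on at most 3 counts per library in one line and depend on the prior count of the fit.

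The receptor-proximal signaling genes, which carry the signal from IL1R1 or IL18R1 to the IκB kinases, are all seen, and most do not pass the test. Of 19 genes, all tested, 5 rose, 1 fell and 13 did not pass, beside 25.0% higher and 26.0% lower among all genes, with a median log2 fold change of 0.08. PELI2, a ubiquitin ligase that acts on IRAK kinases, has 7, 6 and 10 counts in 1CT and 41, 50 and 46 in 1CT-A and rose with a log2 fold change of 2.00 (SE 0.31, edgeR adjusted p = 1.4e-04). CHUK, the IκB kinase α subunit, rose by 0.81 (SE 0.14, edgeR adjusted p = 3.8e-04), and UBE2N, an E2 enzyme that builds K63-linked chains with UBE2V1, rose by 0.59 (SE 0.09, edgeR adjusted p = 9.3e-05). The 3 smallest changes lose their call without some libraries. IRAK3, an inhibitory member of the IRAK family, rose by 0.33 (SE 0.12, edgeR adjusted p = 0.0352), but its adjusted p is 0.0794, 0.0728 and 0.164 without 1CT replicate 3, 1CT-A replicate 1 and 1CT-A replicate 3. IRAK1, the kinase that leaves the receptor to activate TRAF6, rose by 0.22 (SE 0.09, edgeR adjusted p = 0.0437), but its adjusted p is 0.116, 0.158, 0.149 and 0.0984 without 1CT replicate 1, 1CT replicate 2, 1CT-A replicate 1 and 1CT-A replicate 2. TOLLIP, a negative regulator at the receptor, fell by 0.29 (SE 0.10, edgeR adjusted p = 0.0248), but its adjusted p is 0.0774, 0.0873 and 0.0934 without 1CT replicate 3, 1CT-A replicate 2 and 1CT-A replicate 3. The adaptor MYD88, named here after its value was seen, has a log2 fold change of 0.11 and did not pass, nor did the abundant UBE2V1, MAP3K7 and TAB2, with -0.05, 0.09 and -0.00.

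Genes that IL-1 is known to induce are split evenly between the directions. Of 24 listed IL-1 response genes, 20 were tested, 8 rose, 8 fell and 4 did not pass, beside 25.0% and 26.0% among all genes, with a median log2 fold change of -0.13. Several neutrophil-attracting CXC chemokines rose. CXCL3 has 17, 14 and 14 counts in 1CT and 173, 206 and 231 in 1CT-A, or 1.83 ± 0.163 and 17.3 ± 1.56 CPM (SD, n = 3 each), a log2 fold change of 3.19 (SE 0.18, edgeR adjusted p = 2.1e-08). CXCL2 has 11, 7 and 8 counts in 1CT and 54, 75 and 87 in 1CT-A, a log2 fold change of 2.48 (SE 0.28, edgeR adjusted p = 1.0e-05). CXCL1, CXCL2 and CXCL3 are close copies of each other, so reads could be split between them. The other genes called higher, named after their values were seen, are CXCL1, CXCL5, CXCL6, PTGS2, SOD2 and TNFAIP6. CXCL6 does not pass the filter on low counts without 1CT-A replicate 1 or 1CT-A replicate 2. TNFAIP6, a hyaluronan-binding protein, has 1, 3 and 0 counts in 1CT and 34, 43 and 40 in 1CT-A, a ratio of pooled CPM of 20.4 with an exact 95% counting interval of 7.76 to 76.1. Without 1CT replicate 2 that ratio is 54.1.

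TNFAIP3, BIRC3 and the CC chemokines CCL20 and CCL2 fell. TNFAIP3, the ubiquitin-editing enzyme A20 that restrains NF-κB, has 93, 81 and 91 counts in 1CT and 13, 11 and 17 in 1CT-A, or 10.8 ± 0.965 and 1.16 ± 0.192 CPM (SD, n = 3 each). It fell with a log2 fold change of -3.24 (SE 0.22, edgeR adjusted p = 1.2e-07). BIRC3, an inhibitor of apoptosis that NF-κB induces, has 45, 77 and 51 counts in 1CT and 11, 19 and 10 in 1CT-A and fell by 2.65 on the log2 scale (SE 0.31, edgeR adjusted p = 1.4e-05). CCL20, the ligand of CCR6, has 75, 82 and 33 counts in 1CT and 16, 10 and 10 in 1CT-A and fell by 2.93 (SE 0.35, edgeR adjusted p = 1.7e-05). CCL2, which attracts monocytes, has 466, 409 and 292 counts in 1CT and 221, 257 and 294 in 1CT-A and fell by 1.15 (SE 0.13, edgeR adjusted p = 9.0e-06). None of these genes overlaps between the lines in CPM. The other genes called lower, named after their values were seen, are CSF3, ICAM1, IL32 and NFKBIZ. IL32, a cytokine outside the IL-1 family, has 21, 24 and 14 counts in 1CT and 0, 0 and 3 in 1CT-A, so its few counts in 1CT-A come from replicate 3.

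The 3 most abundant of the tested response genes that did not pass are NFKBIA, MMP3 and CXCL8. NFKBIA, the inhibitor IκBα that NF-κB induces within its own feedback loop, is 294 ± 9.72 CPM in 1CT and 284 ± 9.00 CPM in 1CT-A (SD, n = 3 each), a log2 fold change of -0.09. MMP3, a matrix metalloprotease, has a log2 fold change of 0.04. CXCL8, the chemokine IL-8, has 61, 150 and 27 counts in 1CT and 76, 88 and 86 in 1CT-A. The 1CT libraries lie on both sides of the 1CT-A libraries, and the log2 fold change of -0.47 becomes 0.36 without 1CT replicate 2 and -0.85 without 1CT replicate 3, where it passes the test (edgeR adjusted p = 0.0123).

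**Figure D3:**
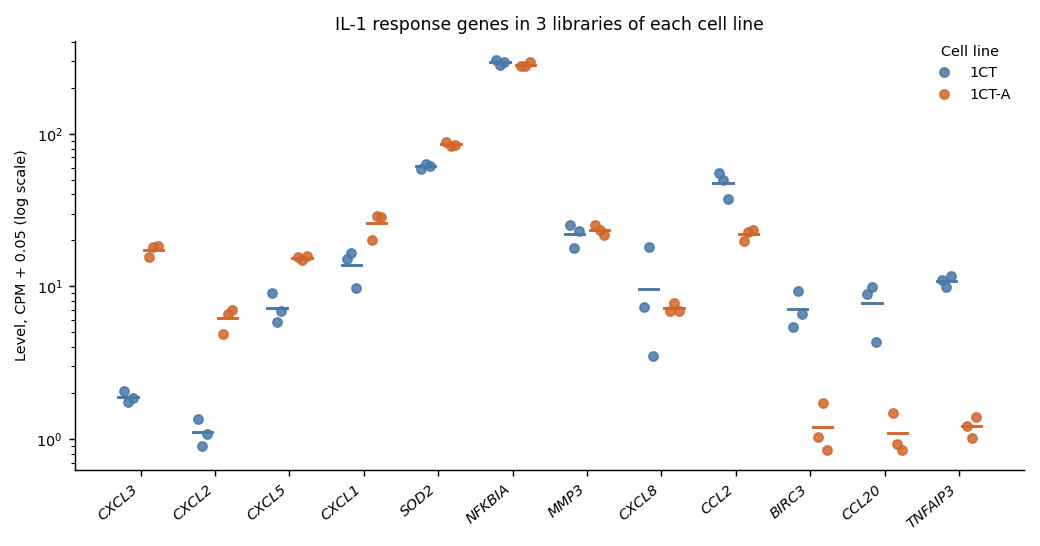
Level of 12 IL-1 response genes in the 3 libraries of 1CT and of 1CT-A, as CPM + 0.05 on a log scale, with a point for each library and a line at the mean. CXCL3 rises from 1.83 to 17.3 CPM on average and TNFAIP3 falls from 10.8 to 1.16 CPM, while NFKBIA is at 294 and 284 CPM.

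Position on the chromosome was not used to choose the members, so the nearest tested genes around each were read from the same fit, with RefSeq gene order. Of 36 such neighbors, 6 are higher, 10 lower and 20 not called in 1CT-A, beside 25.0% higher and 26.0% lower among all genes, so nothing particular to the neighbors is read from these counts. IL18 lies on chromosome 11. On one side SDHD, TIMM8B and C11orf57 have log2 fold changes of 0.54, -0.10 and -0.11 and are not called. SDHD is called higher without 1CT replicate 2 or 1CT-A replicate 1 (edgeR adjusted p = 0.0409 and 0.0303). On the other side the nearest tested gene is BCO2, a carotenoid-cleaving oxygenase, with 64, 71 and 58 counts in 1CT and 7, 4 and 6 in 1CT-A. BCO2 fell with a log2 fold change of -4.03 (SE 0.28, edgeR adjusted p = 1.3e-07). PTS follows with 0.14 and is not called. The next is NCAM1, a neural adhesion molecule, with 31, 27 and 47 counts in 1CT and 1, 0 and 0 in 1CT-A. NCAM1 fell (edgeR adjusted p = 2.1e-06), and the ratio of pooled CPM, 1CT over 1CT-A, is 151 with an exact 95% counting interval of 26.4 to 6001. That ratio rests on the single count of 1CT-A replicate 1, without which it has no value, and it is 102 without 1CT-A replicate 2 and 96.6 without 1CT-A replicate 3. The genes on one side of IL18 thus did not pass, and of the 3 on the other side 2 fell.

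The neighbors in the other clusters differ by less than BCO2 does. Beside the ligand cluster of IL1A, IL1B and IL1RN on chromosome 2, CKAP2L rose by 0.90, SLC20A1 fell by 1.38 and PAX8 fell by 1.17 on the log2 scale. The call of PAX8 rests on 1CT replicate 1, without which it is -0.82 (edgeR adjusted p = 0.0537). Beside the receptor cluster of IL1R1, IL1RL1 and IL18R1, CNOT11 rose by 0.27 and MRPS9 by 0.57. The CNOT11 call is lost without 5 of the 6 libraries in turn, all but 1CT replicate 3. Around CASP1, DCUN1D5 rose by 0.57 and AASDHPPT by 0.52. Near IL1RAP on chromosome 3, CLDN1, a tight junction protein, fell with a log2 fold change of -2.50, which is -1.77 without 1CT replicate 2 and -3.22 without 1CT-A replicate 2. P3H2, LPP and CCDC50 fell by 1.22, 0.71 and 0.36 there and OPA1 rose by 0.29. The OPA1 call is lost without 1CT replicate 1, 1CT-A replicate 1 or 1CT-A replicate 2 (edgeR adjusted p = 0.0760, 0.0641 and 0.0683). Near IL33 on chromosome 9, ERMP1 fell by 1.04 and KIAA2026 by 0.44, the latter not without 1CT replicate 2 or 1CT-A replicate 3 (edgeR adjusted p = 0.0604 and 0.126).

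**Figure D4:**
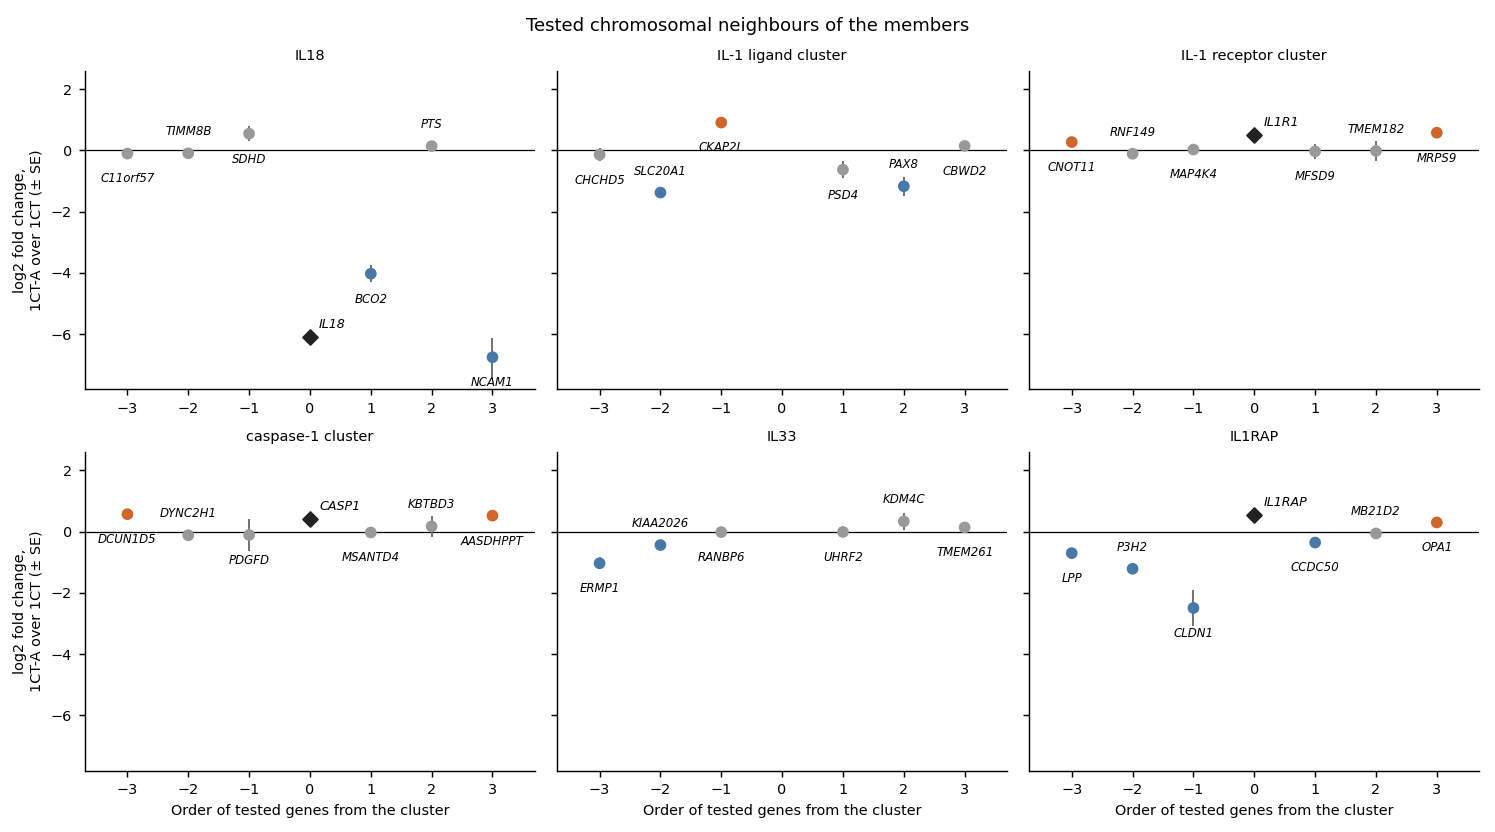
Fitted log2 fold change of 1CT-A over 1CT with its standard error for the 3 nearest tested genes on each side of every member cluster, colored by edgeR call, with tested members as black diamonds. IL18, BCO2 and NCAM1 lie far below 0 while SDHD, TIMM8B, C11orf57 and PTS lie near it, and the NCAM1 value depends on the prior count of the fit.

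The genes whose pattern over the 6 libraries is most like that of IL18 were ranked by Pearson's r of log2(CPM + 1) among the 8230 genes that average 10 CPM or more. The top 5 are GRAMD3, CTNNA1, SLC20A1, SAT1 and LPIN2, with r from 0.9994 to 0.9998. With 2 separate groups of 3 libraries any gene lower in 1CT-A with little spread scores high, and 1328 genes have an r above 0.9, so the ranking is a description only. Their log2 fold changes are -1.39, -0.67, -1.38, -1.55 and -0.94, all smaller in size than that of IL18. CTNNA1 is α-catenin of adherens junctions, SLC20A1 a phosphate transporter that also lies beside the ligand cluster, and SAT1 an enzyme of polyamine breakdown.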

How the data were processed

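Total RNA of HCEC 1CT and 1CT-A cells was made into QuantSeq 3′ libraries from 500 ng of RNA per the labels and sequenced on a NextSeq instrument. The authors deposited 1 file of raw counts per library, without normalization or pooling. The submitters' processing notes name Bowtie2, edgeR and the hg19 build. Versions, the counting tool, the annotation and the use of strand are not given in the sources used here, so overlapping genes and close copies are uncertain. Molecular identifiers are not named, so intervals cover counting error only.

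Counts of the 286 symbols entered more than once were added. CPM scales a library's total to 1000000 counts, without TMM. Differences were fitted over the whole table with edgeR 4.0.16 in R 4.3.3 (TMM, factors 0.976 to 1.02; filterByExpr, minimum count 10; quasi-likelihood test, two-sided, no block; Benjamini-Hochberg over 12514 genes; called at an adjusted p under 0.05). Each standard error is the absolute log2 fold change divided by the square root of the F statistic of that test. For the members it therefore carries the same information as the test, and it is given as a description only. An exact permutation test of 3 against 3 libraries cannot go below p = 0.1, so calls rest on this fit. The fit was tested on simulated data with few changed genes and the same dispersion for every gene. That simulation does not cover a table in which 51.0% of tested genes are called. Replicates differ by a chi-square per degree of freedom of 3.11 to 9.00, so no library was counted as a copy. The numbers 1 to 3 were not taken to pair the libraries. Deviations from the mean of the line correlate at -0.161, 0.22 and -0.139 for same-numbered libraries and at -0.29 to 0.345 for different numbers. Centering within 3 libraries ties these values together, so they cannot decide whether the numbers pair the libraries. Alternatives were DESeq2 1.42.0, its size factors, limma-voom (limma 3.58.1), library size only, other filters, the replicate block, the highest entry of a repeated symbol, stricter thresholds, each library left out and, after seeing the data, CASP1 with CARD16 and low-count ratios.

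The members and gene lists were chosen with earlier results of these data known. Named genes are the members, up to 6 called genes per list with the largest change, at least 2 CPM on average and no overlap, up to 3 abundant genes not called, 3 tested neighbors per side, 5 genes most like IL18, APC and leading markers. RefSeq GRCh38.p14 gave promoter windows and gene order, no coordinates of the counts.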

Additional observations from a re-analysis of the deposited data

How the results depend on the processing

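The log2 fold changes of IL18, IL1R1 and IL1RAP stay within 1 SD of the libraries under every alternative compared for them. The rule of a 2-fold change was not among these. Over the libraries left out, the values are -6.35 to -5.90, 0.43 to 0.55 and 0.18 to 0.78. The log2 fold change of CASP1 runs from 0.36 to 0.48 and becomes 0.29 only with CARD16 added. IL18 is not tested when at least 10 counts are required in every library. The rule of a 2-fold change with an unadjusted p under 0.01 calls 313 genes higher and 821 lower over the whole table. It leaves 0 genes lower among the other IL-1 family genes and 0 higher and 2 lower among the inflammasome genes. Among the receptor-proximal genes it leaves 1 higher and 0 lower, and among the response genes 3 higher and 6 lower. Requiring 10 counts in every library leaves 3 receptor-proximal genes higher and, since fewer genes are tested, 4 response genes higher and 5 lower. An adjusted p of 0.01 leaves 3 receptor-proximal genes higher and 0 lower. With the replicate block, which rests on numbers not known to pair the libraries, 6091 genes are called, 6000 of them also called without it. With it, 3 receptor-proximal genes are higher. Leaving out 1 library gives 3 to 4 receptor-proximal genes higher and 0 to 1 lower. Single named genes outside the members were compared without the 2-fold rule and the stricter threshold. Of these results, 911 keep their side of the threshold, 26 lose it, 8 gain it and 0 reverse. A reversal was counted only for a gene called in at least 1 of the fits compared. Genes not called in either, such as CXCL8, can change sign. The cause was not tested. Depth limits IL1A, IL1B, IL33, IL1RN, IL1RL1 and IL18R1, which stay near or under 3 counts in at least 1 line. IL18 has 4, 8 and 6 counts in the 1CT-A libraries, so depth also limits how well the size of its fold is known.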
